A study of Homo sapiens with 12 samples.

Results

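RNF187 and GLYR1 are the genes described here, 2 of the 19225 entries of a gene count table, picked because both were low in cells given one of a pair of siRNAs against FAT1 and not in cells given the other. The table holds 12 RNA-seq libraries of HN6 and HN30, established cell lines of oral squamous cell carcinoma (OSCC), the commonest cancer of the mouth. Cells of each line were transfected with a scrambled siRNA (NC), with siFAT1-1 or with siFAT1-2, using Lipofectamine RNAiMAX, and RNA was taken 24 h later. All groups share the transfection, so no untreated cells were compared, and a transient siRNA lowers its target only in part. Each of the 6 conditions has 2 libraries, made at separate times. Some sample labels write short hairpins where their descriptions and the methods write siRNAs, and the latter names are used here. The question set by the pair of siRNAs is which changes follow both of them and which follow one.

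RNF187 (also known as RACO-1) is a RING-type ubiquitin ligase that acts as a coactivator of c-Jun, a subunit of the AP-1 transcription factor through which growth signals reach genes of cell proliferation. GLYR1 (also known as NDF or NP60) is a nuclear protein with a PWWP domain that binds chromatin in the bodies of transcribed genes, works with the histone demethylase KDM1B and helps RNA polymerase to pass nucleosomes. FAT1 is a giant atypical cadherin of the cell surface. An siRNA is a short double strand, and its antisense strand guides the silencing complex to a target. The same complex can also lower other transcripts whose 3′UTR pairs with the seed of that strand, its bases 2 to 8, in the manner of a microRNA.

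The sequences below show the stretch of FAT1 that siFAT1-2 was designed against and the stretches of both genes that hold the same 7 letters. The target of siFAT1-2 is coding sequence in exon 23 of the 27 exons of FAT1, on the minus strand at chr4:186598017-186598035 (GRCh38). That of siFAT1-1 is coding sequence in exon 10, at chr4:186618791-186618809. Each was found in 1 of 18865 transcripts searched (the canonical transcripts of GENCODE 44), that of FAT1. Lines are read 5′ to 3′ along the transcript, and capitals mark the letters that pair with bases 2 to 8 of the antisense strand, called its target word here.
FAT1, target of siFAT1-2: gcacgtgtgttGTCGACAa
RNF187, 3′UTR: tagataaattaGTCGACAg
GLYR1, end of the coding sequence and start of the 3′UTR: tacactaagctGTCGACAc
FAT1, target of siFAT1-1: gcaccacaattTCGAGCAa
The window of RNF187 lies in exon 4, its last, on the plus strand at chr1:228494741-228494759, and its word starts at base 867 after the stop codon. The window of GLYR1 lies in exon 16, its last, on the minus strand at chr16:4805225-4805243, and its word starts at base 4 after the stop codon, so that the first 8 letters of the window are coding sequence with the stop codon.

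The transcript of RNF187 (ENSG00000168159, chromosome 1, 228487382 to 228499899, plus strand) used here has 4 exons, 3118 nt, a coding sequence for 235 amino acids and a 3′UTR of 2303 nt. That of GLYR1 (ENSG00000140632, chromosome 16, 4803203 to 4847288, minus strand) has 16 exons, 3718 nt, a coding sequence for 553 amino acids and a 3′UTR of 2033 nt. GTCGACA occurred once in each transcript. ACACGTG, the word of the sense strand of siFAT1-2, occurred in the coding sequence (exon 3) and again in the 3′UTR of RNF187, and had no match in GLYR1. The words of siFAT1-1 (TCGAGCA and TGTGGTG) and of the NC siRNA (TGTCACG and TCGGAGA) had no match in either transcript. Only the transcript strand was searched. Beyond the word the match to the FAT1 target was short. The run of matching letters from base 2 of the antisense strand on was 7 in RNF187 and 8 in GLYR1, and 3.88% and 1.18% of 13934 tested genes had a run as long or longer somewhere in their transcript. The best match without gaps covered 12 of the 19 letters in both genes, which 62.0% of genes reached.

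**Figure D1:**
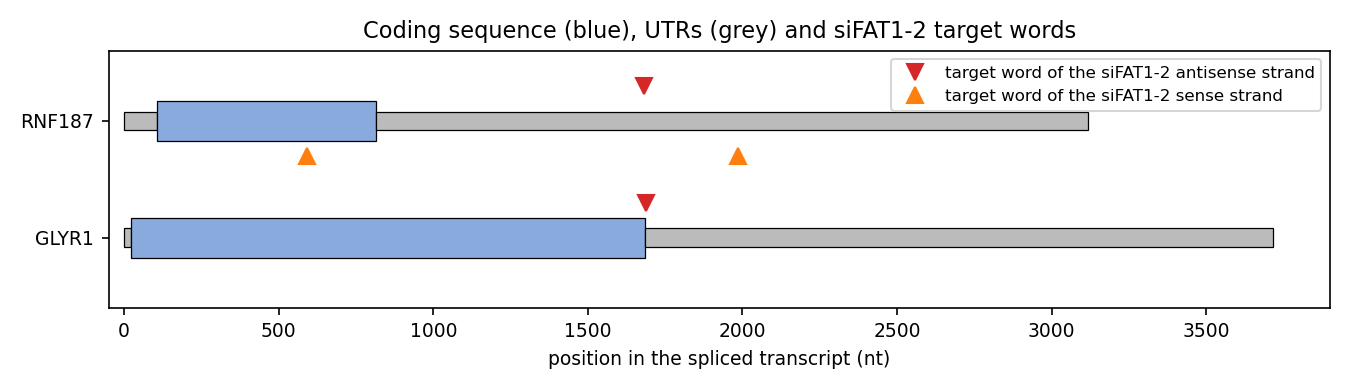
Spliced transcripts of RNF187 and GLYR1 drawn to scale along the position in nt, with coding sequence in blue, UTRs in grey and triangles at the target words of the 2 strands of siFAT1-2. The antisense word lies within the 3′UTR of RNF187 and directly after the coding sequence of GLYR1.

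Total counts ran from 26430049 to 47639010 per library. RNF187 had 315 to 4295 counts and GLYR1 723 to 4607 counts in a library, so that the spread between repeats and not the depth limits their precision. Levels are CPM, counts scaled to a common library size, with TMM factors. Of 7 markers of squamous epithelium, 6 were above 1 CPM in every HN6 library and 6 in every HN30 library, and KRT14, a keratin of basal cells, was at most 2.42 CPM in HN6 and 0.0747 CPM in HN30. Of 3 leukocyte markers, PTPRC and CD3E were under 1 CPM in all libraries, while CD68 was at 69.1 to 121 CPM in HN6 and 16.1 to 31.3 CPM in HN30. Of 3 endothelial markers, PECAM1 was under 1 CPM in all libraries, VWF was at most 1.53 CPM, and CDH5 reached 6.52 CPM in HN6 and 1.79 CPM in HN30. Of 5 fibroblast markers, COL3A1 and DCN were under 1 CPM in all libraries, COL1A2 reached 4.42 CPM and LUM 13.7 CPM in HN6, and COL1A1 was at 57.2 to 146 CPM in HN6 and 11.1 to 46.4 CPM in HN30. FAT1 itself was at 56.8 and 66.7 CPM in HN6 with NC, 7.61 and 13.5 CPM with siFAT1-1, and 13.2 and 21.4 CPM with siFAT1-2. In HN30 FAT1 was at 13.6 and 14.7 CPM with NC, 4.86 and 6.25 CPM with siFAT1-1, and 7.75 and 10.8 CPM with siFAT1-2. It fell with both siRNAs (log2 fold change −2.0, SE 0.318, edgeR adjusted p = 0.00653 for siFAT1-1, and −1.27, SE 0.311, adjusted p = 0.0237 for siFAT1-2, called in 11 of 12 fits that each left out 1 library). The FAT1 levels with the 2 siRNAs did not pass the test against each other (0.73, SE 0.307, adjusted p = 0.118).

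The level of RNF187 in HN6 was 47.6 and 39.4 CPM with NC, 53.7 and 41.5 CPM with siFAT1-1, and 10.1 and 9.49 CPM with siFAT1-2. In HN30 it was 118 and 93.4 CPM with NC, 134 and 132 CPM with siFAT1-1, and 24.1 and 24.7 CPM with siFAT1-2. All 4 siFAT1-2 libraries lay below all NC and siFAT1-1 libraries of their line, and the gap between them was wide: the lowest of the other libraries was 3.88-fold above the highest siFAT1-2 library in HN6 and 3.78-fold in HN30. The mean with siFAT1-2 was 22.6% of that with NC in HN6 and 23.1% in HN30. In bulk RNA, fewer cells that carry a transcript and less of it per cell cannot be told apart. Since RNF187 was picked on these values, they are given as a description and were not tested.

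GLYR1 was at 75.5 and 99.5 CPM with NC in HN6, at 104 and 112 CPM with siFAT1-1, and at 20.0 and 32.3 CPM with siFAT1-2. The corresponding values in HN30 were 104 and 110 CPM, 130 and 129 CPM, and 27.9 and 31.2 CPM. The siFAT1-2 libraries again lay apart from the others, by 2.34-fold in HN6 and 3.34-fold in HN30. The second HN6 siFAT1-2 library had the highest GLYR1 level of the 4. The mean with siFAT1-2 was 29.9% of that with NC in HN6 and 27.6% in HN30, again a description of values used in the choice of the gene.

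**Figure D2:**
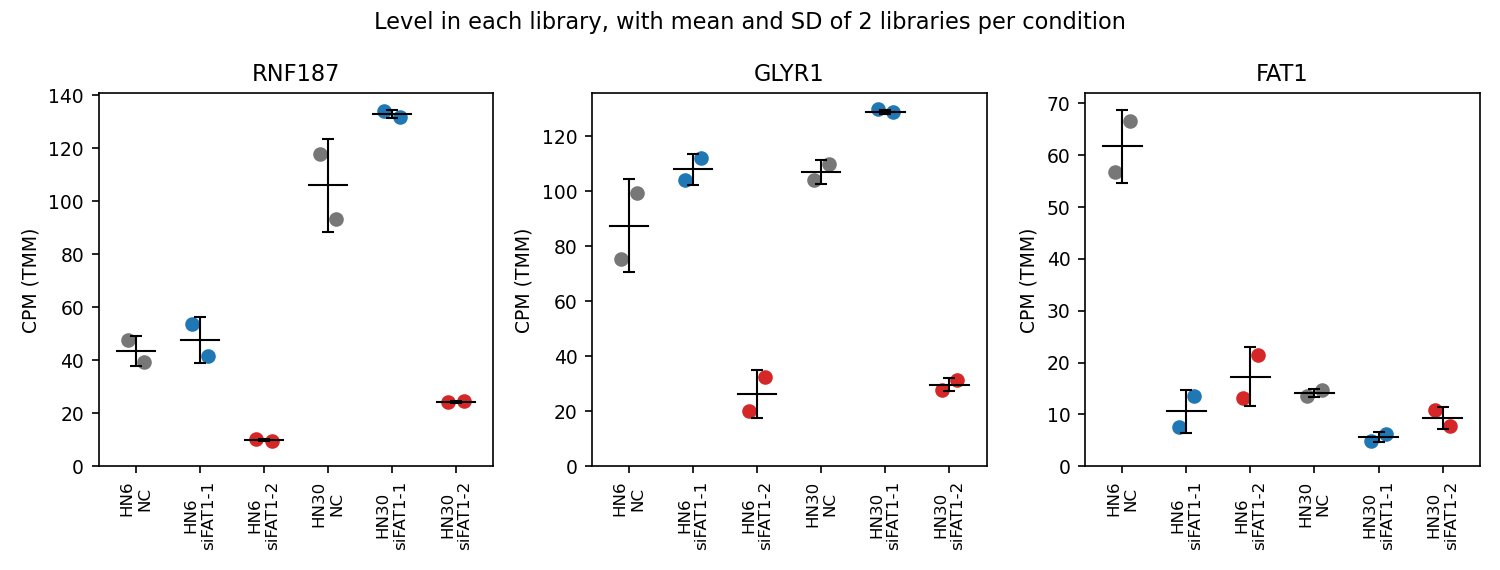
CPM (linear axes from 0) of RNF187, GLYR1 and FAT1 in each of the 12 libraries, with the mean (line) and SD (bar) of the 2 libraries of each condition. RNF187 at 9.49 to 24.7 CPM and GLYR1 at 20.0 to 32.3 CPM with siFAT1-2 sit below the other libraries of their line, while FAT1 is low with both siRNAs.

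In the fit with cell line as a term, siFAT1-2 against NC gave a log2 fold change of −2.13 (SE 0.154, n = 4 libraries each) for RNF187 and −1.80 (SE 0.169) for GLYR1. Against siFAT1-1 the values were −2.37 (SE 0.155) and −2.09 (SE 0.171). Both comparisons share the siFAT1-2 libraries. The estimate for siFAT1-1 against NC had the other sign for both genes, 0.23 (SE 0.147) for RNF187 and 0.29 (SE 0.164) for GLYR1, both under 2 SE in this fit. With the replicate number as a block, GLYR1 had 0.30 (SE 0.141), above 2 SE. All siFAT1-1 libraries lay above the NC libraries of their line for GLYR1. Sorted by the estimate for siFAT1-2 against NC, 78 of 14105 genes tested were below RNF187 and 160 were below GLYR1. FAT1, the intended target, had 482 genes below it.

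The pattern itself was not rare. Of the 14105 genes, 1118 (7.93%) had all 4 siFAT1-2 libraries below all NC and siFAT1-1 libraries of their line. With a gap of at least 2-fold in both lines, 34 genes were left, among which RNF187 came 6 and GLYR1 came 19 in the order of the smaller gap of the lines. Called at an edgeR adjusted p under 0.05, 7.30% of genes were lower and 4.30% were higher in siFAT1-2 against NC, 9.77% were lower in siFAT1-2 against siFAT1-1, and 2.06% were lower in siFAT1-1 against NC. These shares are the background for the edgeR counts given further on. For siFAT1-2 against NC, DESeq2 called 10.5% of all genes lower and limma-voom 8.35%. Counts at an unadjusted p, and counts called higher by DESeq2 or limma-voom, have no such share here. Calls for siFAT1-2 against NC numbered 1635 in all, and 678 without the first HN30 NC library.

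Within the lines, RNF187 was lower with siFAT1-2 than with NC by a log2 value of −2.15 (SE 0.228) in HN6 and −2.12 (SE 0.227) in HN30, a difference between the lines of −0.03 (SE 0.307). GLYR1 had −1.74 (SE 0.257) in HN6 and −1.86 (SE 0.258) in HN30, a difference of 0.12 (SE 0.353). Both differences between lines were smaller than their SE. FAT1 differed more between the lines, with −1.84 (SE 0.359) in HN6 and −0.61 (SE 0.352) in HN30 for the same contrast. The FAT1 difference between lines was −1.22 (SE 0.497) and was not tested.

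**Figure D3:**
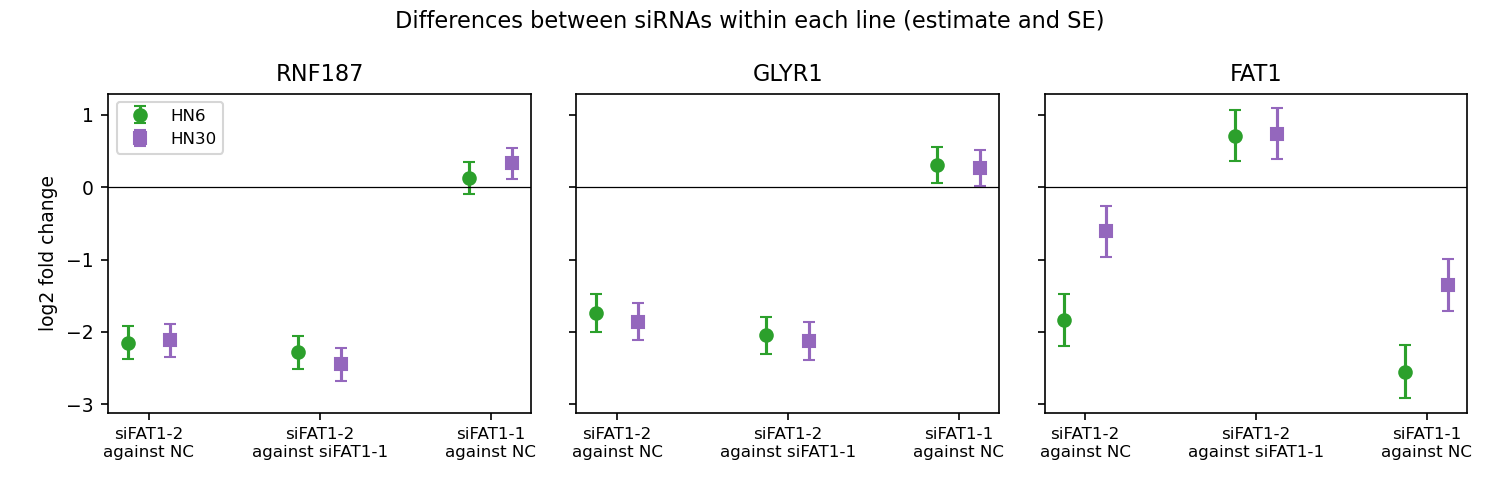
Log2 fold changes (points) with SE (bars) within HN6 and HN30 for RNF187, GLYR1 and FAT1 in the 3 comparisons of siRNAs. RNF187 and GLYR1 lie near −2 in both comparisons with siFAT1-2 and near 0 for siFAT1-1 against NC, whereas FAT1 is lowest for siFAT1-1 against NC.

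The choice of the genes did not use the comparison of the lines, which was tested over all siRNAs. RNF187 was lower in HN6 than in HN30 (log2 fold change −1.36, SE 0.123, edgeR adjusted p = 2.39e-06), and 56.9% of all genes were called between the lines in one or the other direction. GLYR1 did not pass this test (−0.24, SE 0.134, adjusted p = 0.142), and passed it without the second HN6 siFAT1-2 library (−0.34, adjusted p = 0.0309). By mean level, RNF187 stood in the order HN30 siFAT1-1 (133 CPM), HN30 NC (106), HN6 siFAT1-1 (47.6), HN6 NC (43.5), HN30 siFAT1-2 (24.4) and HN6 siFAT1-2 (9.81). Of neighbours in that order, the HN6 siFAT1-1 and HN6 NC libraries overlapped. For GLYR1 the order was HN30 siFAT1-1 (129 CPM), HN6 siFAT1-1 (108), HN30 NC (107), HN6 NC (87.5), HN30 siFAT1-2 (29.6) and HN6 siFAT1-2 (26.2). Here HN6 siFAT1-1 overlapped HN30 NC, and the siFAT1-2 libraries of the 2 lines overlapped.

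GTCGACA stood in the 3′UTR of 107 of the 13934 tested genes with a transcript (0.768%). Of these 107 genes, 25 (23.4%) were called lower and 7 higher in siFAT1-2 against NC, where 7.30% of all genes were called lower. In siFAT1-1 against NC 1 of them was called lower, or 0.935%, beside 2.06% of all genes. Their median log2 fold change was −0.21 for siFAT1-2 against NC, −0.32 for siFAT1-2 against siFAT1-1 and 0.05 for siFAT1-1 against NC. Without RNF187 and GLYR1, which were picked for their fall, 105 genes had a median of −0.20 for siFAT1-2 against NC and 21.9% were called lower. Within HN6 and HN30 the median of the 107 genes was −0.19 and −0.38. Each fit that left out 1 library gave a median between −0.34 and −0.18 and a share called lower between 13.1% and 24.3%, the lowest share without the first HN30 NC library, when 3.38% of all genes were called lower.

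The other words served as a comparison. ACACGTG (siFAT1-2 sense strand, 692 genes) had a median of −0.11 for siFAT1-2 against NC and 11% called lower. TGTGGTG (siFAT1-1 sense strand, 2559 genes) had 0.07 and 6.88%, TGTCACG (NC antisense strand, 403 genes) 0.02 and 7.44%, and TCGGAGA (NC sense strand, 279 genes) 0.08 and 7.89%. Genes with TCGAGCA, the word of the siFAT1-1 antisense strand (191 genes), had −0.02 and 5.76% for siFAT1-2 against NC. For siFAT1-1 against NC they had −0.17 and 7.85%, where 2.06% of all genes were called lower. Genes whose coding sequence holds GTCGACA (408 genes) had a median of −0.30 and 20.8% called lower for siFAT1-2 against NC. Genes that hold any such word in the 3′UTR have long transcripts, with a median of 5441 nt for GTCGACA and 4881 to 6037 nt for the other words, against 3277 nt for all genes, and a median GC content of 45.8% for GTCGACA against 49.1% for all genes. The parts of length and base composition in these medians were not tested, nor was the part of the word in the level of any single gene.

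**Figure D4:**
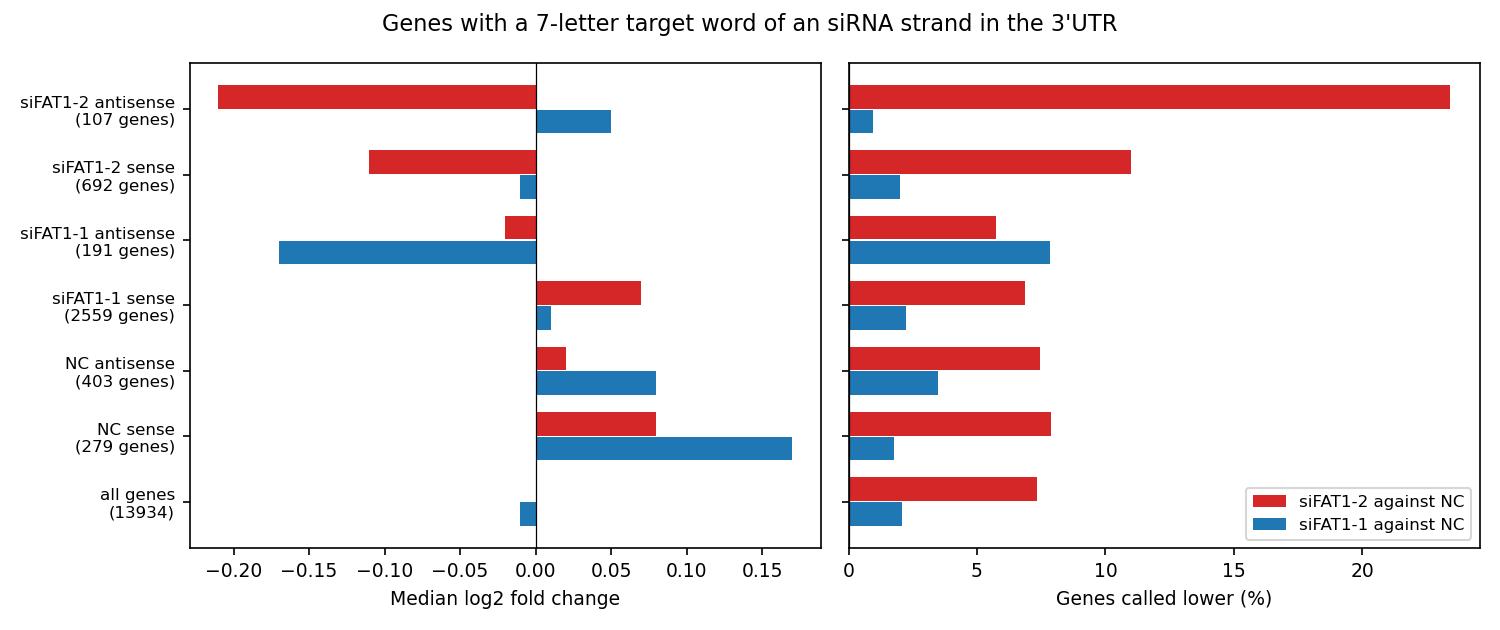
Median log2 fold change (left) and percentage of genes called lower (right) for tested genes with the 7-letter target word of each siRNA strand in the 3′UTR and for all tested genes with a transcript, for siFAT1-2 against NC (red) and siFAT1-1 against NC (blue). The antisense word of siFAT1-2 has the lowest red bar, at −0.21, and the highest share called lower, 23.4%.

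Most genes with a low level in all siFAT1-2 libraries did not hold the word in the 3′UTR, and some holders rose. Of the 408 genes with GTCGACA in the coding sequence, 88 (21.6%) had such a low level, beside 7.94% of all genes with a transcript. Of the 1107 genes with a transcript whose siFAT1-2 libraries all lay below the others of their line, 25 (2.26%) held GTCGACA in the 3′UTR, beside 0.768% of all genes. Of the 100 genes with the lowest estimates 2 (2.0%) held it, and of the 500 lowest 19 (3.8%) did. These counts include the genes picked for their fall. RNF187 is among the 2, and both RNF187 and GLYR1 are among the 19 and the 25. Without them, 23 genes with such a low level held GTCGACA in the 3′UTR. The windows of the 4 genes besides RNF187 and GLYR1 with the smallest p are shown because 3 of them fell and 1 rose with the same 7 letters.
AP1M1, chr19:16234585-16234603, plus strand: tctgctctgccGTCGACAc
PSMD13, chr11:252670-252688, plus strand: ctgctcagacgGTCGACAt
STAT5A, chr17:42311471-42311489, plus strand: tttgtaaccttGTCGACAa
TPM4, chr19:16102304-16102322, plus strand: gctccagcctgGTCGACAg
AP1M1, a subunit of a clathrin adaptor, fell with siFAT1-2 against NC (log2 fold change −1.90, SE 0.194, edgeR adjusted p = 0.000614), with 13.5 to 20.9 CPM in the siFAT1-2 libraries and 46.5 to 94.1 CPM in the NC libraries. PSMD13, a subunit of the proteasome lid, fell by 1.67 on the log2 scale (SE 0.207, adjusted p = 0.00161). STAT5A, a transcription factor of cytokine signalling, fell by 2.46 (SE 0.337, adjusted p = 0.00257), the lowest estimate of the 107 genes, and its run of matching letters was 9. The siFAT1-1 estimates of these 3 genes did not pass the test (0.39, 0.11 and −0.64). TPM4, a tropomyosin of the actin cytoskeleton, rose with siFAT1-2 (1.69, SE 0.172, adjusted p = 0.000614) and with siFAT1-1 (2.68, SE 0.179, adjusted p = 4.24e-05). TPM4 libraries had 143 to 236 CPM with NC, 562 to 626 CPM with siFAT1-2 and 1060 to 1320 CPM with siFAT1-1.

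By the longest run anywhere in the transcript, the median log2 fold change for siFAT1-2 against NC was 0.10 for a run of 4 letters (5153 genes), −0.04 for 5 (5634 genes), −0.10 for 6 (2536 genes), −0.30 for 7 (376 genes), −0.18 for 8 (120 genes) and −0.12 for 9 (32 genes), and the 7 genes with a run of 10 had −0.51. Median transcript length rose from 2448 nt at a run of 4 to 4562.5 nt at a run of 7, and its part in these medians was not tested. The longest run after FAT1 was 11 letters, in MATN1, SAP130, B3GALNT2 and PPIL4, with log2 fold changes of −0.29 (SE 0.409), −0.30 (SE 0.153), −0.45 (SE 0.195) and −0.16 (SE 0.384) for siFAT1-2 against NC (lowest edgeR adjusted p 0.152), and 4 genes are too few to set against the 7.30% called lower over all genes. The most letters matched without gaps after FAT1 were 16 of 19, in FAT2, a relative of FAT1, whose estimate was −0.49 (SE 0.531, adjusted p = 0.574). The FAT2 match had a run of 6.

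Genes most like RNF187 and GLYR1 were sought by Pearson's r of log2 CPM, centred within each line, over the 12 libraries. These values describe libraries that share their siRNAs and carry no test. RNF187 was most like ATP13A2 (r = 0.979), CMIP (0.978), AP1M1 (0.977), HECTD3 (0.977) and CDC42 (0.975). GLYR1 was most like CMIP (0.988), SLC37A1 (0.987), CIB2 (0.987), C17orf58 (0.984) and WWC3 (0.983). RNF187 and GLYR1 had r = 0.966 with each other, and FAT1 had r = 0.0424 with RNF187 and 0.0426 with GLYR1. Of these 9 like genes, AP1M1 held GTCGACA in its 3′UTR and none held it in the coding sequence. All 9 lay lower in every siFAT1-2 library, with log2 fold changes against NC from −1.92 (CIB2, SE 0.245) to −0.92 (CDC42, SE 0.137), smaller than that of RNF187. CIB2 and AP1M1 (−1.90, SE 0.194) had lower estimates than GLYR1 (−1.80, SE 0.169).

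**Figure D5:**
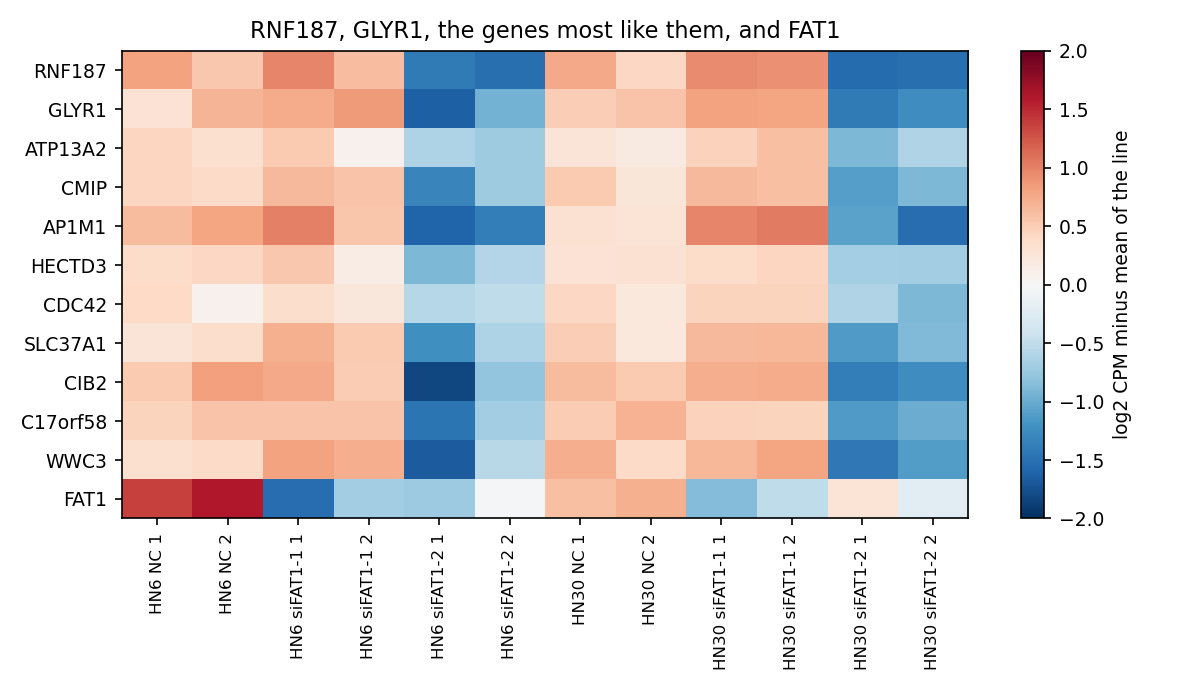
Log2 CPM minus the mean of the line (colour) in the 12 libraries for RNF187, GLYR1, the 9 genes with the highest r to either, and FAT1. The siFAT1-2 libraries are blue and all others red or pale for every gene but FAT1, which is high with NC.

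Genes near RNF187 and GLYR1 on the chromosome were compared to see whether the low level was shared locally. None of the 5 tested protein-coding genes whose start lies within 250 kb of that of RNF187 and none of the 13 near GLYR1 was called by edgeR in siFAT1-2 against NC, where 7.30% of all genes were lower and 4.30% higher. At an unadjusted p under 0.05, 1 gene near RNF187 was higher and 3 near GLYR1 were lower, without a share of all genes to set beside them. DESeq2 called 1 higher near RNF187 (HIST3H2A) and 1 lower near GLYR1 (UBN1), and limma-voom called HIST3H2A. Around RNF187, HIST3H2BB (29.3 kb) had 0.82 (SE 0.832), HIST3H2A (29.5 kb) 0.87 (SE 0.294), TRIM17 (70.5 kb) 0.22 (SE 0.626), TRIM11 (80.5 kb) −0.08 (SE 0.160) and RHOU (248.1 kb) −0.75 (SE 0.741). Most of these estimates were above 0. Around GLYR1 the nearest was UBN1 (0.6 kb), a histone chaperone gene on the other strand whose annotated body overlaps that of GLYR1 by 624 bases at their starts. UBN1 had −0.55 (SE 0.185, adjusted p = 0.0727) for siFAT1-2 against NC and was called lower against siFAT1-1 (−0.60, SE 0.186, adjusted p = 0.0441). Against siFAT1-1, 2 of the 13 genes near GLYR1 were called lower and 2 higher. ROGDI (44.4 kb) had −0.35 (SE 0.169), SMIM22 (58.9 kb) −0.02 (SE 0.368), ZNF500 (79.7 kb) −0.31 (SE 0.258), SEC14L5 (111.0 kb) 0.53 (SE 0.921), ANKS3 (112.9 kb) 0.30 (SE 0.225) and C16orf71, also at 112.9 kb, −0.87 (SE 0.474). The use of strand in the counting is not given in the sources used here, so reads from the overlap of UBN1 and GLYR1 cannot be told apart.

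Genes of the pathways in which RNF187 and GLYR1 work were taken from lists, and the median log2 fold change of all genes tested was 0. AP-1 subunits and the enzymes that act on them showed 2 genes higher and 3 lower of 25 tested in siFAT1-2 against NC, with a median of −0.07. FBXW7, which marks c-Jun for destruction, rose (log2 fold change 1.13, SE 0.178, edgeR adjusted p = 0.00406). FOSL1, the AP-1 subunit FRA1, fell (−1.27, SE 0.245, adjusted p = 0.00911), as did RFWD2, the ubiquitin ligase COP1 (−0.74, SE 0.154, adjusted p = 0.0129). MAPK9, the kinase JNK2 and itself a holder of GTCGACA in the 3′UTR, also fell (−0.82, SE 0.188, adjusted p = 0.0181, called in 10 of 12 fits that left out 1 library). With siFAT1-1 against NC, FBXW7 had 0.57, FOSL1 −0.66, RFWD2 −0.19 and MAPK9 0.07, none of them called. For siFAT1-2 against siFAT1-1, FOSL1 did not pass the test (−0.61, SE 0.242, edgeR adjusted p = 0.0988), and the others did. JUN, added here as the direct partner of RNF187, had 0.55 (SE 0.279, adjusted p = 0.214). With siFAT1-1 against NC it had 0.71 (SE 0.282, edgeR adjusted p = 0.2). In HN30, JUN was at 30.2 and 30.3 CPM with NC, 75.7 and 82.1 CPM with siFAT1-1, and 39.4 and 82.7 CPM with siFAT1-2. The corresponding values in HN6 were 331 and 347 CPM, 351 and 361 CPM, and 310 and 458 CPM.

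Of 18 AP-1 target genes, 2 were called lower and 0 higher, beside 7.30% and 4.30% of all genes, with a median of −0.40. DESeq2 called 4 lower and limma-voom 2, where they called 10.5% and 8.35% of all genes lower, and neither called any higher. At an unadjusted p under 0.05, 6 were lower and 0 higher, without a share of all genes to set beside them. CCND1, the cyclin D1 gene, fell with siFAT1-2 (−1.40, SE 0.249, adjusted p = 0.0069) and had −0.13 (SE 0.244) with siFAT1-1. The CCND1 level was 3520 and 4180 CPM with NC and 980 and 2100 CPM with siFAT1-2 in HN6, and 879 and 1710 CPM against 428 and 495 CPM in HN30, so the groups did not overlap. MMP9, a matrix metalloproteinase, was also called lower (adjusted p = 0.0214, in 10 of 12 fits that left out 1 library), but its NC libraries had 541 and 59.2 CPM in HN6 and 41.2 and 0.353 CPM in HN30, a spread that leaves its fold change unclear. With siFAT1-1 against NC, MMP9 had −4.05 (SE 1.24, edgeR adjusted p = 0.102). For the p38 MAP kinase genes, 1 of 10 was lower, MAPK13 (−0.69, SE 0.148, adjusted p = 0.014), and 0 were higher, also at an unadjusted p under 0.05 and with DESeq2 and limma-voom. The median was −0.08.

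A list of histone H3 enzymes and genes of KDM1 family complexes, KDM1B among them, had 2 genes higher and 2 lower of 17 tested, with a median of 0.14. Which of these genes work in a complex with GLYR1 was not examined. WIZ (−0.89, SE 0.195, adjusted p = 0.0151) and EHMT1 (−0.62, SE 0.171, adjusted p = 0.0372), parts of the complex that methylates histone H3 at lysine 9, fell. HDAC2 (0.57, SE 0.155, adjusted p = 0.0365) and HDAC1 (0.50, SE 0.150, adjusted p = 0.0496), histone deacetylases, rose. HDAC1 had 0.51 (SE 0.150, edgeR adjusted p = 0.0864) with siFAT1-1 against NC and −0.01 for siFAT1-2 against siFAT1-1. With siFAT1-1 against NC, HDAC2 had −0.22, WIZ 0.01 and EHMT1 0.13. Of these 4, WIZ was called in all 12 fits that left out 1 library and the other 3 in 2 each. KDM1B, added here as the direct partner of GLYR1, had −0.48 (SE 0.238, adjusted p = 0.209). In HN30, KDM1B was at 28.0 and 31.6 CPM with NC and 11.9 and 18.3 CPM with siFAT1-2. In HN6 the values were 25.8 and 28.7 CPM, and 23.3 and 30.2 CPM. This difference between the lines was not tested. Of 18 genes of transcription through nucleosomes, 1 was higher, CTR9 of the PAF1 complex (0.96, SE 0.248, adjusted p = 0.0296, in 9 of 12 such fits), and 0 were lower, with a median of 0.23. At an unadjusted p under 0.05, 4 were higher and 2 lower, without a share of all genes to set beside them. DESeq2 called 3 higher and 2 lower, and limma-voom 2 each, where they called 10.5% and 8.35% of all genes lower.

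Relatives of both genes by sequence family were counted beside the 7.30% of all genes called lower and the 4.30% called higher. Of 21 other genes with a PWWP domain, 1 was higher and 1 lower, with a median of −0.14. DNMT3B, a DNA methyltransferase, fell (−1.76, SE 0.424, adjusted p = 0.022, in 10 of 12 such fits), and MBD5, a methyl-CpG-binding domain gene, rose (1.10, SE 0.328, adjusted p = 0.0498, in 2 of 12). Of 67 other tested RNF genes, 3 were higher and 3 lower, with a median of 0.05. DESeq2 called 3 higher and 7 lower, where it called 10.5% of all genes lower. Against siFAT1-1, 5 RNF genes were higher and 9 lower, where 9.77% of all genes were lower. RNF34 fell (−1.19, SE 0.227, adjusted p = 0.00888), as did RNF166 (−0.90, SE 0.212, adjusted p = 0.021, in 9 of 12 such fits), which also fell with siFAT1-1 (−1.33, SE 0.215, adjusted p = 0.00671). RNF41 rose (0.72, SE 0.191, adjusted p = 0.0324, in 4 of 12 such fits), and RNF150 was called higher at 0.175 to 1.72 CPM with siFAT1-2 against 0 to 0.141 CPM with NC.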

How the data were processed

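Poly(A) RNA of HN6 and HN30 was sequenced in read pairs. Reads of low quality, with runs of N or in duplicate were discarded by the authors before mapping to hg38, and the deposited values are whole-number counts per gene with no normalization. The submitters' processing notes name HISAT2 and featureCounts. Which annotation was counted, and whether by strand, is not given in the sources used here. The number of columns left out was 0.

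The 12 libraries were grouped by their labels. Removing duplicates without molecular tags can lower the counts of highly expressed genes. Genes kept by filterByExpr (minimum count 10; 14105 genes) were fitted with edgeR 4.0.16 (TMM, glmQLFit, glmQLFTest) with cell line and siRNA as terms, and a fit of the 6 conditions gave values within lines. P-values were adjusted by Benjamini-Hochberg over all genes tested, and an adjusted p under 0.05 is a call. SE is the absolute log2 fold change over the square root of F. Fold changes used a prior count of 0.125, and log2 CPM one of 2. limma 3.58.1 and DESeq2 1.42.0 served as alternatives, in R 4.3.3. On simulated counts for siFAT1-2 against NC, edgeR recovered 100 of 200 changed genes with 9 false calls among 13941 genes. The simulated counts held no difference between the lines, so this recovery does not measure the sensitivity in the real libraries.

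Sequences came from GENCODE 44 on GRCh38, the authors' build, with 1 canonical transcript a gene. Of the table's symbols, 18205 matched directly, 660 through an older symbol and 360 had no match. Target words are the 7 letters that pair with bases 2 to 8 of each siRNA strand as given in the methods.

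RNF187 and GLYR1, the gene lists and the words were chosen with earlier results of these data known, so the siRNA comparisons of both genes carry no p. Besides RNF187, GLYR1 and FAT1, the rule for named genes took the 5 genes with the highest r to each, up to 4 called genes of each list by smallest p in siFAT1-2 against NC, up to 6 tested neighbours by distance and the longest pairing after FAT1. JUN, KDM1B, C16orf71 and the marker genes were named outside it.

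The repeat number marks a separate time in the labels and so pairs libraries within a line. Deviations of same-numbered libraries from their condition means were correlated across genes for some pairs, and r was near 0 for others. In HN6, NC had r = 0.0747 to siFAT1-1 and 0.217 to siFAT1-2, which had 0.233 to each other. The same order in HN30 gave −0.0293, 0.401 and −0.0203. The repeats differed by more than sampling noise, with a mean chi-square per gene of 14.8 to 247.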

Additional observations from a re-analysis of the deposited data

How the results depend on the processing

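The siRNA log2 fold changes of RNF187 and GLYR1 moved by less than the spread between repeats (SD 0.168 and 0.237) with limma-voom, DESeq2, its size factors in edgeR, no filter, the replicate block, the 6-condition model and each left-out library. Leaving out 1 library gave −2.21 to −2.06 for RNF187 and −1.95 to −1.69 for GLYR1 (siFAT1-2 against NC), −2.45 to −2.32 and −2.24 to −1.97 (siFAT1-2 against siFAT1-1), 0.15 to 0.31 and 0.21 to 0.35 (siFAT1-1 against NC), and −1.41 to −1.29 and −0.34 to −0.16 (HN6 against HN30). With the replicate block the values for siFAT1-2 against NC were −2.13 and −1.81, and the block changed no call of either gene.

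Counts of called genes moved more. Against NC, siFAT1-2 gave 1635 calls in the fit reported, 2696 with DESeq2, 1603 with the replicate block and 678 to 1674 with 1 library left out, and siFAT1-1 gave 452, 1208, 411 and 113 to 666. For siFAT1-2 against siFAT1-1 the 2400 calls became 994 to 3333, and for HN6 against HN30 the 8023 became 7218 to 8033. The cause was not tested. Genes with all siFAT1-2 libraries below the others numbered 1118, and 1124 without the filter.

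With 6 letters, the median of the genes with the siFAT1-2 antisense word was −0.14 for siFAT1-2 against siFAT1-1 and −0.11 for siFAT1-2 against NC, where 15.3% of 606 genes were called lower. Leaving out 1 library, which like leaving out RNF187 and GLYR1 was chosen for these genes after the data were seen, gave medians of −0.34 to −0.18 and shares called lower of 13.1% to 24.3% for siFAT1-2 against NC. The siRNA strands were read from the methods, 1 transcript a gene was searched, and 2 libraries a condition limit every SE.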
